A study of Mus musculus with 15 samples.

Results

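The genes described here are 8 feedback inhibitors of mitogen-activated protein (MAP) kinase signalling: the phosphatases Dusp1, Dusp2, Dusp4, Dusp5, Dusp6 and Dusp10 and the Sprouty genes Spry1 and Spry2. They are 8 of the 21110 genes in the deposited table. The set was chosen by name, by a person or model to whom the levels of these genes in these same 15 libraries were already known. The levels of the 8 genes and their differences between groups are therefore given as a description, without p-values, and tests are given for other genes of the pathway.

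MAP kinases (ERK, JNK and p38) carry signals from surface receptors to the nucleus and are switched on by phosphorylation of a threonine and a tyrosine. Dual-specificity phosphatases remove both phosphates, and many of their genes are themselves induced by MAP kinase signalling, which makes them a feedback brake. Sprouty proteins act further upstream, where they dampen the relay from receptor tyrosine kinases through Ras to ERK. In leukocytes these genes respond to cytokines, antigen receptors, IgE receptors and stress, and transcripts of several of them are short-lived.

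RNA was sequenced from cells sorted from the lungs of C57BL6/J mice, either untreated (naive) or given intranasal papain, a plant protease that acts as an allergen, at 50 µg per mouse on 3 days in a row. Basophils (FceR1+, CD49b+, c-kit-) and natural helper cells (lineage-, Thy1.2+, IL7Ra+, CD25+, now also called innate lymphoid cells of the second group) came from naive and from papain-treated mice. Eosinophils (SiglecF+, Gr1 low, not autofluorescent) came from naive mice as 1 gate and from papain-treated mice as a CD11c-negative and a CD11c-positive gate. These 7 groups had 2 libraries each, and 1 further library came from natural helper cells of papain-treated 3'UTRKO mice, a genotype whose target gene the labels do not name. Nothing in the labels says whether the paired libraries came from separate animals, so their spread may be technical, and animals may have been pooled.

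Values are FPKM, sequenced fragments scaled to transcript length and to the mapped fragments of the library, rounded to whole numbers. Because FPKM is per length, levels of different genes can be set side by side. The FPKM of a library summed to 374841 to 570208, and read depth is unknown, so the error of a value is known only from the spread between the paired libraries. Natural helper cells, naive and papain, had the markers of their sort: the natural helper cell list summed to 1259 to 1814 FPKM in them and to 41 to 331 elsewhere. Eosinophils had Ccr3 (124 to 229), Siglec5 (63 to 102), Cebpe (40 to 89), Prg2 (86 to 1519), Ear6 (88 to 333) and Il5ra (2 to 16). The granule peroxidase gene Epx was listed at 0 in 4 of their 6 libraries. Their neutrophil marker sum was 6476 to 16565, with Retnlg at 3449 to 13759, S100a8 at 560 to 5489 and Cxcr2 at 11 to 70. The basophil markers summed to 6484 and 5664 FPKM in naive but to 670 and 1994 in papain basophils. Mast cell markers summed to 291 and 355 in naive and to 152 and 4 in papain basophils. B cell markers summed to 167 and 315 in naive and to 93 and 29 in papain basophils. Fibroblast markers, near 0 in naive basophils (13 and 3) and naive eosinophils (1 and 5), summed to 928 and 374 in papain basophils, to 451 and 274 in papain CD11c-negative eosinophils and to 687 and 617 in papain CD11c-positive eosinophils. In natural helper cells the fibroblast sum was 328 and 213 in naive and 335 and 360 in papain cells. Epithelial markers summed to 6616 and 8709 FPKM in naive and to 20293 and 33877 in papain basophils. Papain basophil library 1 stood apart by its macrophage marker sum of 11674 FPKM (278 in library 2). Library 2 of papain basophils had the higher epithelial, endothelial (302, against 96) and neutrophil sums (7279, against 3207). Papain natural helper cell library 2 stood apart by its macrophage sum (919, against 106) and by the heat shock gene Hspa1a (922, against 54).

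**Figure D1:**
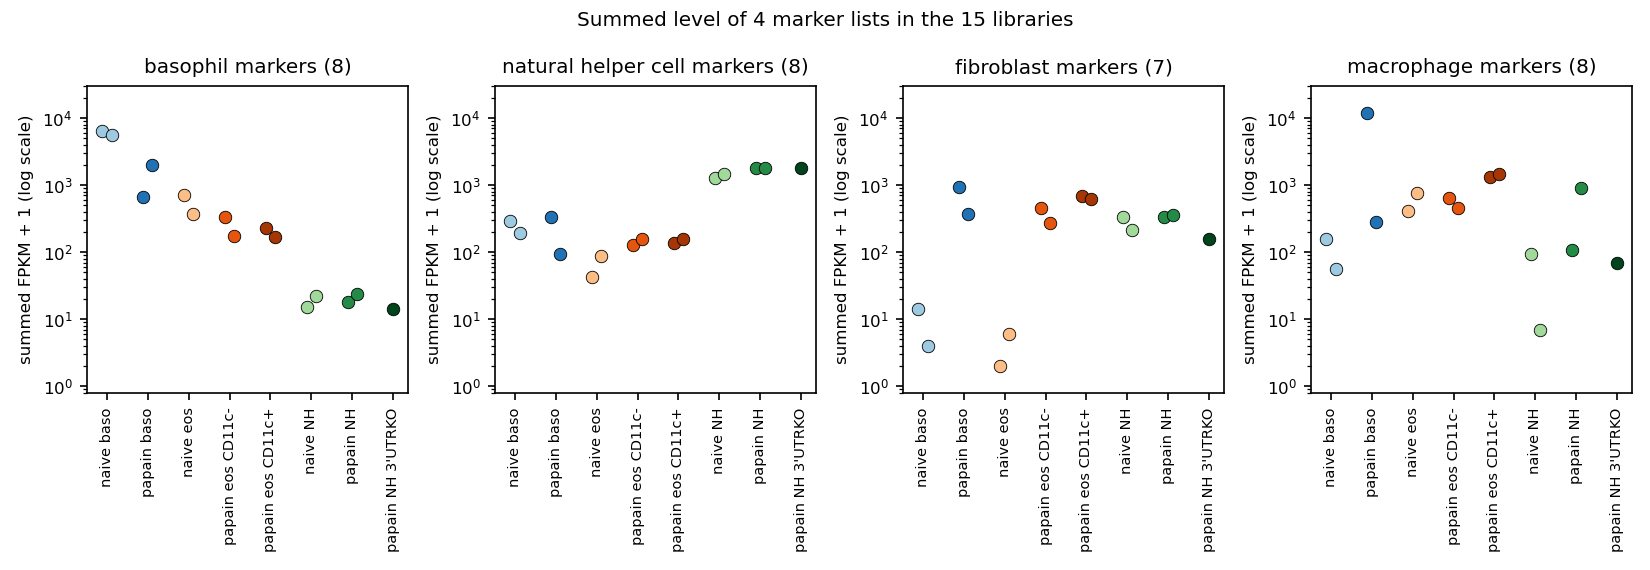
Summed FPKM + 1 (vertical axis, log scale) of 4 marker lists in the 15 libraries. Points are libraries, coloured by group (baso, basophils; eos, eosinophils; NH, natural helper cells). Basophil markers were lower in papain than in naive basophils, and fibroblast markers were higher in papain than in naive basophils and eosinophils.

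Promoter sequence is shown first, because several regulators of these genes act through known short motifs. For 7 of the 8 genes (all but Dusp4) RefSeq's table for GRCm38.p6 gave the 250 bases before and the 50 bases after the gene's start. This build is not the one used by the authors (mm9), so the coordinates below belong to GRCm38.p6 alone. Both strands were searched for 9 letter strings: the cyclic AMP response element or CRE (TGACGTCA), its half-site (TGACGT, which overlaps every CRE), AP-1 (TGACTCA or TGAGTCA), the TATA motif (TATAAA), then ETS (CCGGAAGT), then the E-box (CACGTG), and by name the CArG box bound by serum response factor, NF-kappaB and the glucocorticoid response element. Matches were found in Dusp1, Dusp5 and Dusp2, and their 30-base surroundings are printed 5′ to 3′ along the gene with the match in capitals. The Dusp1 windows lie on the minus strand at chr17:26508597-26508626 (CRE, first base at position -143 from the start), chr17:26508646-26508675 (half-site at -191) and chr17:26508581-26508610 (E-box at -126). The Dusp5 windows lie on the plus strand at chr19:53529053-53529082 (CArG at -82), chr19:53529063-53529092 (CArG at -72) and chr19:53529077-53529106 (half-site at -56), and the Dusp2 window on the plus strand at chr2:127336038-127336067 (E-box at -109).
Dusp1 CRE: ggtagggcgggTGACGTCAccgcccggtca
Dusp1 half-site: ctcctaggccgaTGACGTctttgcttttgg
Dusp1 E-box: tcaccgcccggtCACGTGtctgccattcaa
Dusp5 CArG at -82: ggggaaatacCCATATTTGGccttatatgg
Dusp5 CArG at -72: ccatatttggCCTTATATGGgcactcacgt
Dusp5 half-site: atatgggcactcACGTCAcaggacgcgcac
Dusp2 E-box: cagccagagtccCACGTGaagccgcggggg

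The Dusp1 half-sites inside its CRE are not listed again. The 2 CArG matches of Dusp5 are neighbours without overlap. Among all 32851 promoter entries of this length, a CRE was found in 1.79%, a half-site in 7.51%, a CArG box in 1.63% and an E-box in 7.15%. AP-1 was found in 5.2% of entries, ETS in 3.89%, NF-kappaB in 4.51%, the glucocorticoid response element in 0.426% and TATA in 13.6%, and none of these strings was in the 7 windows. The entries of Dusp6, Dusp10, Spry1 and Spry2 held no match. A match is a string of letters and not a measured binding site, and these data hold no measure of binding. The 7 entries were 57.3% (Dusp6) to 70.7% (Dusp2) G and C, above the median of 52.7% over all entries.

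**Figure D2:**
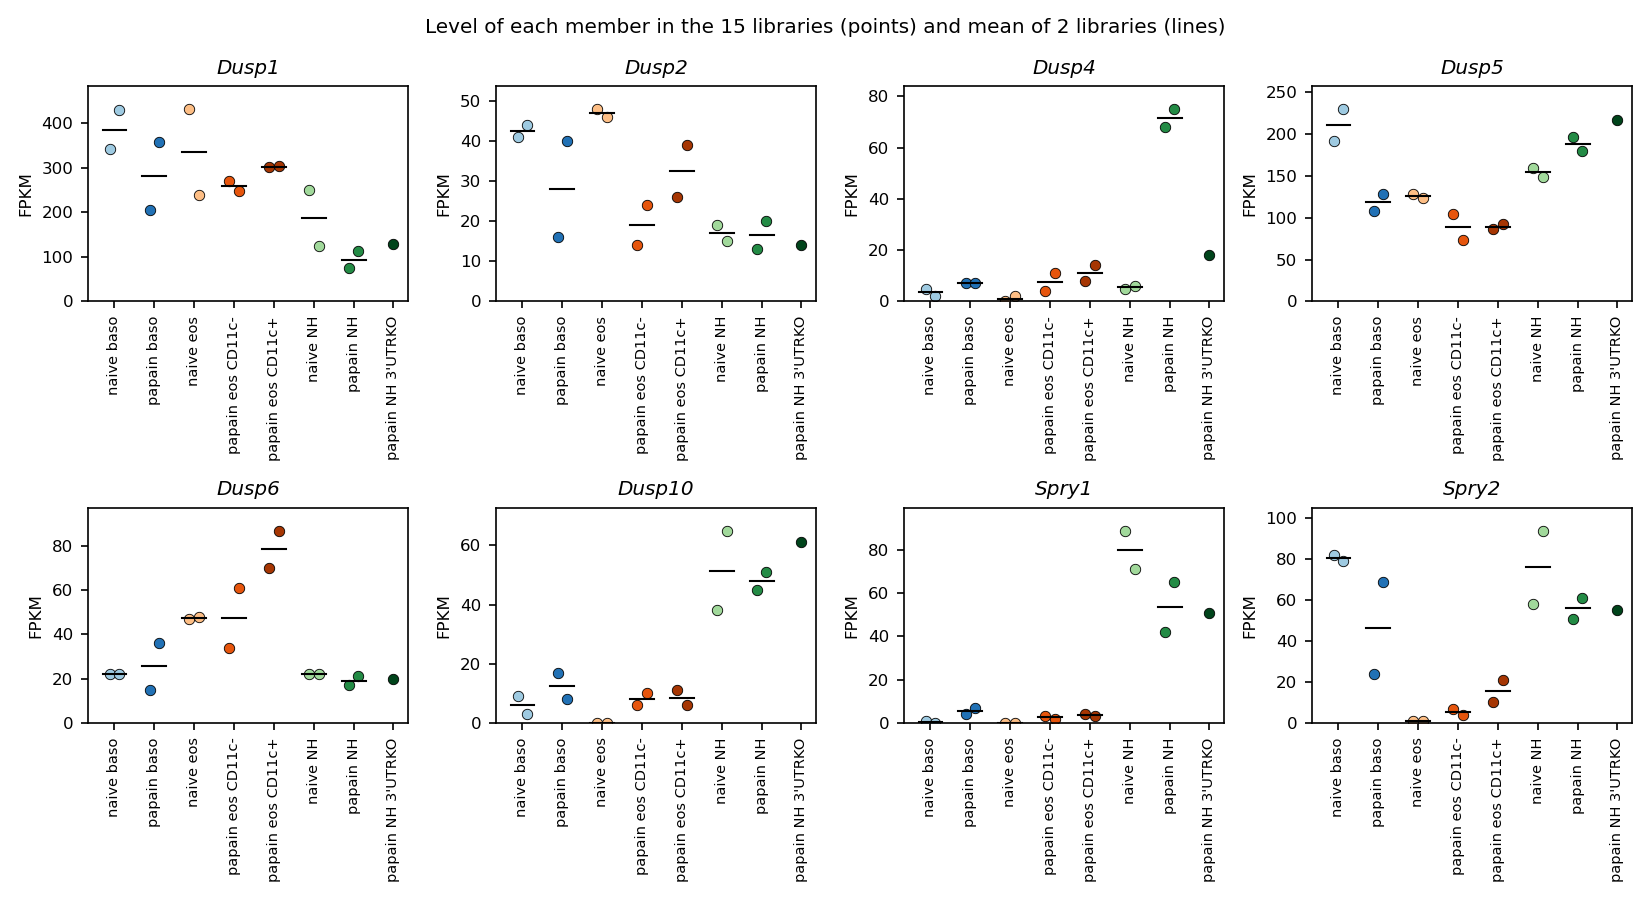
FPKM (vertical axis, linear, a separate scale for each gene) of the 8 genes in the 15 libraries. Points are libraries, lines the mean of the 2 libraries of a group, and the 3'UTRKO group has 1 library. Dusp1 and Dusp5 were high in all groups, Dusp10 and Spry1 were highest in natural helper cells, and Dusp4 stood at 68 and 75 FPKM in papain natural helper cells against at most 18 in the other groups.

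Dusp1 (MKP-1), a nuclear phosphatase that acts mainly on p38 and JNK, was abundant in every library. Naive basophils were at 342 and 429 FPKM, papain basophils at 206 and 358. Eosinophils had 432 and 240 when naive, 271 and 247 in the papain CD11c-negative gate and 301 and 303 in the papain CD11c-positive gate. Natural helper cells had 250 and 125 when naive and 74 and 113 after papain, with 128 in the 3'UTRKO library. By group mean the order ran from naive basophils through naive eosinophils, CD11c-positive eosinophils, papain basophils, CD11c-negative eosinophils and naive natural helper cells to papain natural helper cells. Each neighbouring pair in this order overlapped but the last, and both papain natural helper cell libraries lay below all other libraries. Among genes above 0 in a library, Dusp1 was at percentile 93.8 to 98.5.

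Dusp5, a nuclear phosphatase specific for ERK, was the other abundant member, at percentile 92.8 to 97.9. Naive basophils were at 192 and 230 FPKM, papain basophils at 108 and 129. In eosinophils it had 129 and 124 when naive, 105 and 73 in the CD11c-negative and 87 and 92 in the CD11c-positive papain gate. In natural helper cells it had 160 and 149 when naive, 197 and 180 after papain and 217 in the 3'UTRKO library. Naive basophils and papain natural helper cells overlapped at the top of this order, naive eosinophils and papain basophils overlapped below them, and the 2 papain eosinophil gates overlapped at the bottom. Papain basophils and both papain eosinophil gates lay below their naive counterparts, while papain natural helper cells lay above theirs.

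Dusp2 (PAC-1) is a nuclear phosphatase found mainly in blood cells. Naive basophils were at 41 and 44 FPKM and naive eosinophils at 48 and 46, the 2 groups with the highest means. Papain basophils had 16 and 40, CD11c-negative papain eosinophils 14 and 24, and CD11c-positive papain eosinophils 26 and 39. Natural helper cells had 19 and 15 when naive, 13 and 20 after papain and 14 in the 3'UTRKO library, and these ranges overlapped with those of papain basophils and CD11c-negative eosinophils. All 6 papain libraries of basophils and eosinophils were below the naive libraries of the same cell type.

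Dusp6 (MKP-3) is the cytoplasmic phosphatase of ERK. It had 70 and 87 FPKM in papain CD11c-positive eosinophils, above every other library. Naive eosinophils had 47 and 48, within the range of the papain CD11c-negative gate (34 and 61). Basophils had 22 in both naive libraries and 15 and 36 after papain. Natural helper cells had 22 in both naive libraries, 17 and 21 after papain and 20 in the 3'UTRKO library. The lower 2 cell types could not be told apart by their naive levels.

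Dusp10 (MKP-5), a phosphatase of p38 and JNK, had its highest levels in natural helper cells. These had 38 and 65 FPKM when naive, 45 and 51 after papain and 61 in the 3'UTRKO library, and the ranges overlapped. Papain basophils had 17 and 8 and naive basophils 9 and 3. The papain eosinophil gates had 6 and 10 (CD11c-negative) and 11 and 6 (CD11c-positive), overlapping with each other and with basophils. In both naive eosinophil libraries Dusp10 was listed at 0.

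Dusp4 (MKP-2), a nuclear phosphatase induced by ERK signalling, was low in all cells but papain natural helper cells. It had 68 and 75 FPKM there, 5 and 6 in naive natural helper cells and 18 in the 3'UTRKO library. Basophils had 5 and 2 when naive and 7 in both papain libraries. Eosinophils had 0 and 2 when naive, 4 and 11 in the CD11c-negative and 8 and 14 in the CD11c-positive papain gate. The papain natural helper cell libraries did not overlap with any other group, and the 3'UTRKO library lay above all the rest. Naive eosinophils lay below naive natural helper cells and both papain eosinophil gates, and naive below papain basophils, while the CD11c-negative gate overlapped with the CD11c-positive gate and with papain basophils.

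Spry1 and Spry2 differed in where they were found. For Spry1, naive natural helper cells were at 89 and 71 FPKM, papain ones at 42 and 65 and the 3'UTRKO library at 51. All other libraries had 7 FPKM or fewer: 1 and 0 in naive basophils, 4 and 7 in papain basophils, 3 and 2 in CD11c-negative and 4 and 3 in CD11c-positive papain eosinophils. In both naive eosinophil libraries Spry1 was listed at 0. At such low values rounding to whole FPKM leaves few distinct levels.

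Spry2 was shared by natural helper cells and basophils. Naive basophils were at 82 and 79 FPKM, inside the span of naive natural helper cells (58 and 94). After papain the latter had 51 and 61, the 3'UTRKO library 55, and papain basophils 24 and 69. Eosinophils had 1 in both naive libraries, 7 and 4 in the papain CD11c-negative gate and 10 and 21 in the CD11c-positive gate, and these 3 groups did not overlap. In naive eosinophils Spry2 was at percentile 20.3 and 19.3 of genes above 0, against 94.2 and 94.6 in naive basophils.

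The make-up of the 6 phosphatases differed between cell types. Dusp1 and Dusp5 together made up most of their summed FPKM in every library. Dusp1 was at 52.2% to 65.9% in every library of basophils and eosinophils. In natural helper cells Dusp1 made up 50.6% and 32.7% when naive and 17.9% and 24.6% after papain, and Dusp5 made up 32.4% to 47.6% over all their libraries. Dusp4 made up 1% and 1.6% of the sum in naive natural helper cells, 16.4% and 16.3% after papain and 3.9% in the 3'UTRKO library. Dusp6 took its largest shares, 14.3% (CD11c-negative library 2), 13.9% and 16.1% (CD11c-positive libraries), in papain eosinophils.

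**Figure D3:**
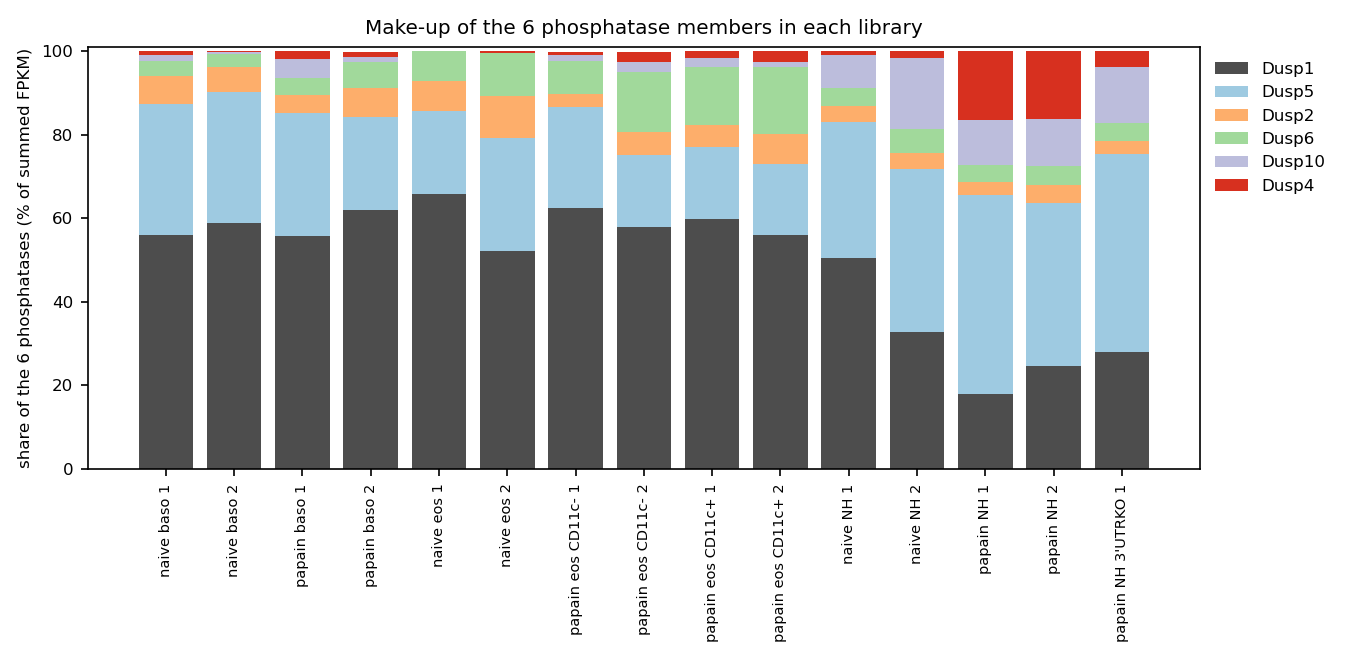
Share (%) of each of the 6 phosphatase genes in their summed FPKM, 1 stacked bar for each of the 15 libraries. Dusp1 fills over 50% of each basophil and eosinophil bar, and Dusp4 fills 16.4% and 16.3% of the papain natural helper cell bars.

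The response to papain was compared within each cell type as differences of log2(FPKM + 1), papain minus naive, with the standard error (SE) of a limma model over all 15 libraries. Bulk libraries cannot tell fewer cells of a type from less RNA per cell, and a difference after papain can reflect either. In basophils Spry1 was higher in both papain libraries (difference 2.16, SE 0.39), as was Dusp4 (0.92, SE 0.59). Lower in both were Dusp5 (-0.83, SE 0.19), Spry2 (-0.96, SE 0.5) and Dusp2 (-0.72, SE 0.42), and the groups overlapped for Dusp1 (-0.49, SE 0.41), Dusp6 (0.08, SE 0.38) and Dusp10 (1.01, SE 0.52). The median over the 8 genes was -0.21, against 0.5 over all genes tested. The median was 0.21 without papain library 1, the library with 11674 FPKM of macrophage markers, and -0.71 without papain library 2. The papain libraries themselves differed by 1.49 (Spry2), 1.27 (Dusp2) and 1.21 (Dusp6) on the log2 scale, with the lower value in library 1 each time. Library 1 also had the lower basophil marker sum (670, against 1994) and the higher values of Dusp10 (17, against 8) and of the T cell marker sum (137, against 11). The part of these cells in the values was not tested. Of the 8 genes, 1 higher and 1 lower passed the limma threshold, beside 26.0% of all 14257 genes tested, and 5 had groups without overlap, beside 46.4% of all genes. The number that passed was 4 without papain library 2, 1 without papain library 1 or naive library 2, and 0 in a fit of the 4 basophil libraries alone.

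In natural helper cells the difference of Dusp4 was 3.48 (SE 0.59) and that of Dusp1 -0.94 (SE 0.41). Dusp5 (0.28, SE 0.19) was also higher in both papain libraries, and Spry1 (-0.6, SE 0.39) and Dusp6 (-0.21, SE 0.38) lower in both. The direction of Dusp5 was not kept after median-ratio scaling, which gave -0.01. Groups overlapped for Dusp2 (-0.06, SE 0.42), Dusp10 (-0.05, SE 0.52) and Spry2 (-0.4, SE 0.5). The median of the 8 was -0.14, against 0.09 over all genes. Of the 8 genes 1 (Dusp4) passed the threshold, beside 0.786% of all genes, and 5 did not overlap, beside 34.6%. Without each of the 4 libraries in turn none of the 8 passed, while the difference of Dusp4 lay between 3.2 and 3.59 under every alternative tried. Dusp4 was at 68 and 75 FPKM in papain libraries 1 and 2, whose macrophage marker sums were 106 and 919 and whose Hspa1a was at 54 and 922.

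In CD11c-negative eosinophils of papain-treated mice Dusp4 (2.16, SE 0.59) and Spry2 (1.66, SE 0.5) were higher than in naive eosinophils. So were Dusp10 (6 and 10 FPKM) and Spry1 (3 and 2 FPKM), for which no fold can be given because the naive libraries were listed at 0. Dusp2 (-1.31, SE 0.42) and Dusp5 (-0.53, SE 0.19) were lower in both libraries, and Dusp1 (-0.31, SE 0.41) and Dusp6 (-0.06, SE 0.38) overlapped. The threshold was passed by 1 of the 8 (by 0 without each library in turn), beside 2.24% of all genes, and 6 did not overlap, beside 37.3%. Their median was 0.8, against 0.21 over all genes.

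The CD11c-positive gate was compared with the same naive libraries, so the 2 comparisons are not independent. Spry2 (2.96, SE 0.5), Dusp4 (2.75, SE 0.59) and Dusp6 (0.7, SE 0.38) were higher in both libraries, as were Dusp10 (11 and 6 FPKM) and Spry1 (4 and 3 FPKM) against 0. Dusp2 (-0.55, SE 0.42) and Dusp5 (-0.49, SE 0.19) were lower in both, and Dusp1 (-0.09, SE 0.41) overlapped. Of the 8 genes 4 passed the threshold, beside 12.1% of all genes, and 7 did not overlap, beside 44.6%. None passed without naive eosinophil library 1, and 2 passed without CD11c-positive library 2. The median of the 8 was 1.43, against 0.34 over all genes. Genes that are abundant in natural helper cells and T cells stood higher in the same libraries. Thy1 was listed at 0 in both naive eosinophil libraries and had 5 and 12 FPKM in the CD11c-negative and 14 and 26 in the CD11c-positive gate. Cd3g, also at 0 when naive, had 6 and 28 in the CD11c-negative and 26 and 4 in the CD11c-positive gate. The T cell marker sum went from 1 and 1 to 16 and 90 (CD11c-negative) and 83 and 96 (CD11c-positive), the natural helper cell sum from 41 and 87 to 129 and 154 and to 136 and 154, and the fibroblast sum as given above. The part of these cells in the values of Dusp10, Spry1, Spry2 and Dusp4 was not tested.

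Between the 2 papain gates, 4 of the 8 genes were higher in both CD11c-positive libraries: Spry2 (1.3, SE 0.5), Dusp6 (0.76, SE 0.38), Dusp2 (0.76, SE 0.42) and Dusp1 (0.22, SE 0.41). The order of Dusp1 changed after quantile normalization, to -0.06. Dusp4 (0.58, SE 0.59), Spry1 (0.37, SE 0.39), Dusp10 (0.06, SE 0.52) and Dusp5 (0.03, SE 0.19) overlapped. None passed the threshold, beside 0.0561% of all genes, and limma gave 1283 genes at an unadjusted p under 0.05. Non-overlap covered 29.8% of all genes. The macrophage marker sum was 1331 and 1483 FPKM in the CD11c-positive and 649 and 457 in the CD11c-negative gate. The neutrophil sum was 12362 and 14230 against 9171 and 6476. Limma called 0 of the 8 macrophage and 0 of the 6 neutrophil markers between the gates. The part of these cells in the values of Spry2, Dusp6, Dusp2 and Dusp1 was not tested.

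**Figure D4:**
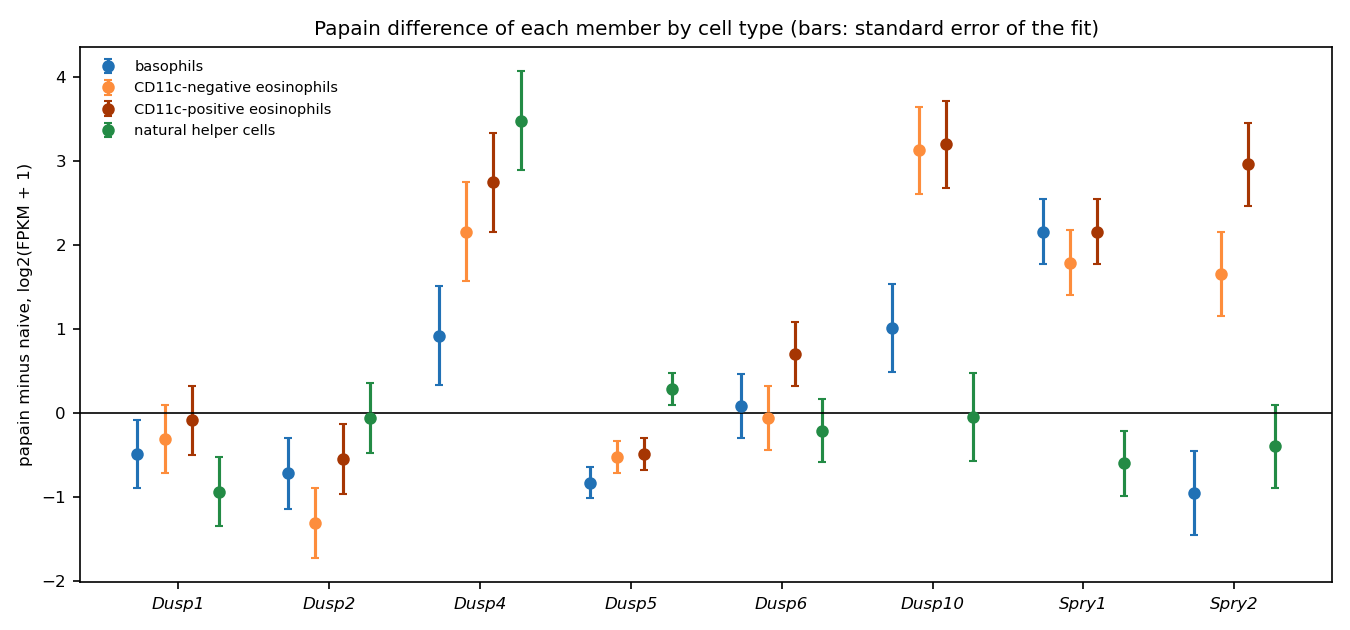
Papain minus naive difference of log2(FPKM + 1) (vertical axis) for each of the 8 genes, coloured by cell type, with bars of 1 standard error of the limma fit over 15 libraries. Dusp4 lies above 0 in every cell type, Dusp5 below 0 in all but natural helper cells (where median-ratio scaling gave -0.01), and Spry2 on opposite sides of 0 in basophils and eosinophils.

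The naive cell types differed most in Dusp10, Spry1 and Spry2. Against naive eosinophils, naive basophils were higher in Spry2 (5.35, SE 0.5) and Dusp5 (0.73, SE 0.19), and in Dusp10, which was listed at 0 in eosinophils. They were lower in Dusp6 (-1.08, SE 0.38) and in Dusp2 (-0.14, SE 0.42), and the direction of Dusp2 turned after median-ratio scaling (0.16) and quantile normalization (0.29). Of the 8 genes 3 passed the threshold (1 without either eosinophil library), beside 14.0% of all genes, and 5 did not overlap, beside 39.4%. Against naive natural helper cells, naive basophils were lower in Spry1 (-5.83, SE 0.39) and Dusp10 (-3, SE 0.52). They were higher in Dusp2 (1.28, SE 0.42), Dusp1 (1.11, SE 0.41) and Dusp5 (0.44, SE 0.19). Here 2 passed, beside 20.6% of all genes, and 5 did not overlap, beside 48.2%. Naive eosinophils were lower than naive natural helper cells in Spry2 (-5.23, SE 0.5), Dusp4 (-1.9, SE 0.59) and Dusp5 (-0.29, SE 0.19), and in Dusp10 and Spry1, both listed at 0. They were higher in Dusp2 (1.42, SE 0.42) and Dusp6 (1.08, SE 0.38). Here 5 passed (3 without eosinophil library 1 or without either natural helper cell library), beside 28.1% of all genes, and 7 did not overlap, beside 55.8%. These 3 comparisons share their libraries.

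In the 3'UTRKO library, 1 sample without a replicate, Dusp4 was at 18 FPKM against 68 and 75 in papain natural helper cells (-1.93 on the log2 scale). That lies between the naive (5 and 6) and the papain libraries. Dusp1 (128), Dusp5 (217) and Dusp10 (61) were above both papain libraries and Dusp2, Dusp6, Spry1 and Spry2 were within their range. The differences of these 7 genes ran from -0.19 (Dusp2) to 0.48 (Dusp1). Of all 14257 genes 14.3% differed by 2-fold or more in this library, and Dusp4 was the 1 member that did. The macrophage marker sum of the library was 69 FPKM and Hspa1a was at 48, near the lower papain library.

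The related phosphatases and Sprouty genes were mostly low. Of 18 listed, 10 had 5 FPKM or more in at least 2 libraries. Dusp16 (MKP-7), a JNK phosphatase, was at 69 and 74 FPKM in naive basophils, at 30 and 21 in naive eosinophils and at 2 and 3 in naive natural helper cells. It was higher than in natural helper cells in both basophils (4.39 ± 0.54, SE, limma adjusted p = 0.000799) and eosinophils (2.91 ± 0.54, adjusted p = 0.00398). In papain basophils it had 15 and 62, and in papain eosinophils 17 to 25. Ptpn7, a tyrosine phosphatase of ERK and p38 in blood cells, was lower in naive basophils (8 and 7) than in naive eosinophils (26 and 35, limma adjusted p = 0.000592) and natural helper cells (18 and 20, adjusted p = 0.00455). Dusp7, a cytoplasmic ERK phosphatase, was at 1 and 0 FPKM in naive and at 6 and 24 in papain basophil libraries (limma adjusted p = 0.0089). Dusp14 rose there from 1 and 0 to 6 and 12 (adjusted p = 0.0167) and Dusp22 from 2 and 1 to 10 and 8 (adjusted p = 0.00788). These 3 calls were lost without naive basophil library 2, and that of Dusp14 also without papain library 2. Spry4, outside the naming rule and picked out after its values were seen, rose from 0 in both to 2 and 8 (limma adjusted p = 0.00719). In these papain basophil libraries basophil markers were lower and fibroblast, epithelial and endothelial markers higher. The part of these shifts in the rises of Dusp7, Dusp14, Dusp22 and Spry4 was not tested. Dusp3 rose in CD11c-positive eosinophils from 1 and 3 to 6 and 7 (adjusted p = 0.0263), a call lost without naive library 1 or CD11c-positive library 2. Ppm1a (13 to 27 FPKM), Ppm1d (4 to 18), Spred1 (1 to 10) and Spred2 (1 to 6) were not called in any of the 8 comparisons.

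The 7 lists of the pathway, those of the related phosphatases and of Sprouty and Spred genes included, held 117 genes, of which 107 were tested. In basophils 21 rose and 6 fell with papain (median 0.29, against 0.5 over all genes), a share close to the 26.0% of all genes called in this comparison. Dusp7, Dusp14, Dusp22 and Spry4, described above, are among the 21. The count rests on scaling: median-ratio scaling, which moved the median of all genes from 0.5 to 0.16, gave 14 higher and 14 lower, and quantile normalization, which moved it to -0.08, gave 12 and 26. Without naive basophil library 2 it was 12 in all, and in a fit of the 4 basophil libraries alone it was 1. Negative regulators (5 of 14 rose) included Errfi1 (MIG-6), an inhibitor of the epidermal growth factor receptor, which rose from 13 and 4 to 104 and 172 FPKM (4.01 ± 0.64, SE, limma adjusted p = 0.00357). Under quantile normalization that list had 1 higher and 4 lower. Among ERK cascade kinases (4 of 16 rose) Mapk3, which encodes ERK1, rose from 13 and 10 to 45 and 45 (1.89 ± 0.17, adjusted p = 0.000453). Under quantile normalization that list too turned, to 1 higher and 4 lower. Among genes of Ras and its exchange factors (3 of 17 rose and 2 fell), Rras rose from 6 and 6 to 26 and 37 and Rasgrp2 fell from 24 and 26 to 9 and 9 (limma adjusted p = 0.00435 and 0.00489). Of 25 JNK and p38 pathway genes 2 rose and 2 fell: the stress gene Gadd45g rose from 13 and 20 to 45 and 105, Mapk13 from 0 in both to 4 and 12, and the kinase Map3k5 fell from 38 and 36 to 11 and 15. Of 21 ERK-induced transcription factors and early genes 3 rose and 2 fell, among them Maff, a small Maf protein, from 19 and 9 to 95 and 191 (3.26 ± 0.4, limma adjusted p = 0.00115). Of the 27 called genes 11 were called without each of the 4 libraries in turn, among them Errfi1, Mapk3, Rras, Rasgrp2, Gadd45g, Mapk13 and Maff.

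These basophil changes came with fibroblast markers that rose in 7 of 7 genes and basophil markers that fell in 7 of 8. Also called higher were 4 of 7 epithelial, 4 of 6 endothelial, 3 of 6 neutrophil and 2 of 8 macrophage markers. No gene of these lists was called lower. Heat shock and tissue dissociation genes rose in 4 of 11, with a median of 1.96. Tsc22d3 (GILZ), a glucocorticoid-induced gene, fell from 106 and 81 to 37 and 28 (limma adjusted p = 0.00352), and Cebpd, another gene of that list, rose from 8 and 4 to 35 and 63. The part of these shifts in the pathway counts was not tested.

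In natural helper cells limma called 0 of the 107 pathway genes, beside 0.786% of all genes, so few or no calls were to be had among 107. Of all genes 1551 had an unadjusted p under 0.05. The median of the 107 was 0.17, against 0.09 over all genes. A fit of the 4 natural helper cell libraries alone called 3, and quantile normalization 1. The count stayed at 0 without each library in turn.

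In CD11c-negative papain eosinophils limma called 2 of the 107, both higher, beside 2.24% of all genes: Errfi1 from 1 and 7 to 69 and 48 FPKM (3.87 ± 0.64, SE, limma adjusted p = 0.0182) and Maff from 9 and 13 to 57 and 43 (2.09 ± 0.4, adjusted p = 0.035). Neither was called without naive library 1 or without either CD11c-negative library, and Maff also not without naive library 2. The 4 naive and CD11c-negative libraries alone gave 8 calls. In the same comparison 6 of 7 fibroblast and 2 of 7 epithelial markers rose, and their part in these calls was not tested.

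In CD11c-positive papain eosinophils 18 of the 107 rose and 6 fell (median 0.16, against 0.34 over all genes), beside 12.1% of all genes called. Of the rises, 9 were among the 21 ERK-induced transcription factors and early genes, none of which fell, and the median of that list was 1.5. Median-ratio scaling gave 8 higher and 1 lower in the list, and quantile normalization 9 and 1. Jun rose from 8 and 18 to 97 and 80 FPKM (2.77 ± 0.5, SE, limma adjusted p = 0.0107), Maff from 9 and 13 to 105 and 86 (adjusted p = 0.00273) and Klf4 from 1 and 5 to 29 and 18 (adjusted p = 0.0291). Errfi1 rose from 1 and 7 to 105 and 98 (4.68 ± 0.64, adjusted p = 0.00308). Genes that fell were the exchange factor Rasgrp2 (66 and 38 to 15 and 14), the adaptor Gab2 (32 and 18 to 8 and 5), the phosphatase Ptpn6 or SHP-1 (285 and 248 to 121 and 105) and the scaffold Ksr1 (8 and 11 to 3 and 3). The p38 kinase Mapk14 (51 and 48 to 21 and 10) and its activator Map2k3 (265 and 241 to 139 and 109) also fell. The total of 24 calls was 6 without naive library 1, 10 without naive library 2 and 7 without CD11c-positive library 2, and 3 genes (Errfi1, Rasgrp2 and Maff) were called without each library in turn. Over the 107 genes the split was 14 higher and 12 lower after median-ratio scaling and 14 and 11 after quantile normalization, with the median of all genes at 0.03 and -0.1. Fibroblast markers rose in 7 of 7 genes, and dissociation and heat shock genes in 2 of 11 (median 1.4), in the same comparison, and their part in the pathway counts was not tested. Between the gates limma called 0 of 107, and 2 were called without CD11c-positive library 1.

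Against naive natural helper cells, naive eosinophils had 11 of the 21 ERK-induced genes lower and 1 higher, and 9 were not called (median -1.41, against -0.21 over all genes, of which 28.1% were called). In the same comparison 3 of 11 dissociation and heat shock genes were lower and none higher (median -1.84), and 6 of 7 fibroblast markers were lower. Their part in these counts was not tested. Quantile normalization gave 13 and 1 and median-ratio scaling 11 and 2. Fosb had 13 and 25 FPKM in eosinophils and 634 and 354 in natural helper cells (-4.64 ± 0.43, SE, limma adjusted p = 9.64e-05), and Egr3 had 2 and 4 against 73 and 36 (adjusted p = 0.00413). Over all 107 genes 25 were higher and 27 lower in eosinophils (33 and 27 after median-ratio scaling). Gadd45b, an activator of stress kinase signalling, had 1114 and 1121 in natural helper cells against 125 and 170 in eosinophils (limma adjusted p = 0.000217) and 138 and 106 in basophils (adjusted p = 0.000273).

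Naive basophils had 11 of the 107 higher and 19 lower than naive eosinophils, beside 14.0% of all genes called. That split turned to 19 and 13 after median-ratio scaling and 17 and 10 after quantile normalization, and the total of 30 was 14 without naive basophil library 2 and 13 without naive eosinophil library 1. The list of 21 ERK-induced transcription factors and early genes went the other way, with 7 higher and 1 lower in naive basophils than in naive eosinophils (median 0.98, against 0 over all genes). From this list, Ier3, an early gene that prolongs ERK activity, had 1960 and 1908 FPKM in naive basophils, 95 and 78 in eosinophils (4.47 ± 0.57, SE, limma adjusted p = 0.00105) and 20 and 36 in natural helper cells (6.12 ± 0.57, adjusted p = 0.000194). The exchange factor Rasgrp4 had 1 in both naive basophil libraries and 47 and 42 in eosinophils (adjusted p = 0.00017). Against natural helper cells 11 were higher and 21 lower in naive basophils, beside 20.6% of all genes called, and 18 and 17 after median-ratio scaling and 19 and 19 after quantile normalization. Klf4 was lower there (6 and 2, against 114 and 47; limma adjusted p = 0.00356), and Gab2 higher (33 and 24, against 1 and 1; adjusted p = 0.000422).

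**Figure D5:**
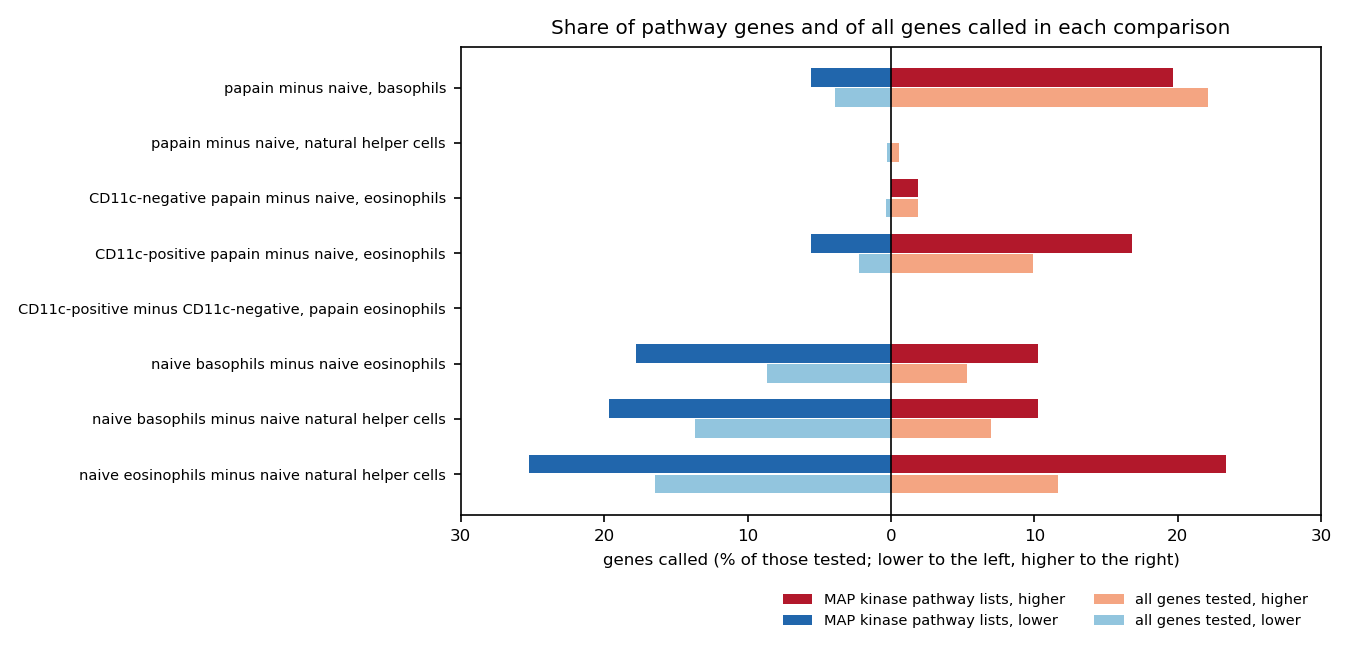
Genes called by limma (adjusted p under 0.05) as a share (%) of those tested in each of the 8 comparisons, higher to the right and lower to the left, for the 107 pathway genes and for all 14257 genes. Both groups have few or no calls in natural helper cells, in the CD11c-negative gate and between the gates.

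Among the 8 genes themselves, Dusp10 and Spry1 had the most similar pattern over the 15 libraries (Pearson r = 0.91, Spearman rho = 0.88), followed by Dusp1 and Dusp2 (0.77 and 0.74). The most negative values were those of Dusp2 with Dusp10 (-0.79 and -0.76), Dusp1 with Dusp4 (-0.78 and -0.61), Dusp1 with Spry1 (-0.77 and -0.62), Dusp5 with Dusp6 (-0.75 and -0.69) and Dusp1 with Dusp10 (-0.74 and -0.76). These values describe the 15 libraries, which fall into 3 cell types, so that any 2 genes of 1 cell type correlate.

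Of 6428 genes whose mean reached 5 FPKM, up to 3 of the closest in pattern to each member are named. Closest to Dusp1 were Zfp36, which encodes the mRNA-decay factor tristetraprolin (r = 0.951), Bbc3 (0.919) and Orai2 (0.882). In natural helper cells Zfp36 stood at 268 and 105 FPKM without and 58 and 81 with papain, lower after papain as for Dusp1, and 240 to 584 in all basophil and eosinophil libraries. Bbc3 was also closest to Dusp2 (0.877), followed by D19Wsu162e and H2-Q10. Closest to Dusp4 were Prkrir (r = 0.947), which in natural helper cells stood at 13 and 12 FPKM without papain, at 39 and 40 with it and at 19 in the 3'UTRKO library, then Unc119b (0.943) and Csnk1g3 (0.921). Closest to Dusp5 were Padi2 (0.945) and Dyrk3 (0.906), and closest to Dusp6 were Paqr7 (0.931), Trub2 (0.928) and Parp10 (0.928). Closest to Dusp10 were Klk8 (0.965), the natural helper cell marker Thy1 (0.962) and the T cell receptor component Cd3g (0.959), which had 115 and 131 FPKM in naive natural helper cells. Spry1 was followed by Ptpn13 (0.98), Mns1 (0.976) and Ctla2a (0.976), and Spry2 by Hs3st1 (0.942), the transcription factor gene Ets1 (0.938) and Ifrd1 (0.936).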

How the data were processed

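RNA of sorted lung cells was sequenced after poly(A) selection, per the labels' protocols. The submitters' processing notes list TopHat 1.4.0, Cufflinks 1.3.0 and mm9; annotation, filters and rounding are not given in the sources used here. The authors deposited 1 score per gene and library, whole numbers read here as rounded FPKM from the values and the tool, so depth is unknown. Each of the 15 columns carries 1 sample's title, and the labels give 8 groups.

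Genes reaching 1 FPKM in 2 or more libraries (14257, all 8 members among them) were fitted as log2(FPKM + 1) in limma 3.58.1 (R 4.3.3): 1 coefficient per group over 15 libraries, 7 residual degrees of freedom, eBayes with trend (prior degrees of freedom 1.87), two-sided, Benjamini-Hochberg over all genes, threshold 0.05. Called means past that threshold. The script was tested on simulated data. Alternatives were pseudocount, filter, scaling, the compared groups alone, a replicate block and single libraries left out. Same-numbered libraries deviated together with correlations of -0.08 to 0.12 (log2, across genes), so the numbers were not taken as pairs.

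The members and all lists were chosen with earlier results of these data known. Named were all members; related phosphatases, Sprouty and Spred genes reaching 5 FPKM in 2 or more libraries; up to 3 called genes per other list and comparison with a group mean of 5 or more; and the 3 genes nearest in pattern to each member. Some genes that this rule names are not reported here. Of 8 eosinophil, 7 neutrophil and 5 mast cell markers 1 each was not in the table by its listed symbol. Promoter sequences are RefSeq's (GRCm38.p6).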

Additional observations from a re-analysis of the deposited data

Results flagged for a closer look

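For some genes every papain library moved one way in 1 cell type and every papain library the other way in another. None of these differences between responses was tested, and each value below is the first named papain response minus the second, on the log2(FPKM + 1) scale. How many of all genes meet this rule was not counted. Papain and naive libraries without overlap, in either direction, covered 34.6% to 46.4% of all genes in these comparisons. The 2 eosinophil gates share their naive libraries, so their entries are not independent.

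Dusp5 was lower after papain in basophils and both eosinophil gates and higher in natural helper cells (where median-ratio scaling gave -0.01), with -1.11 for basophils against natural helper cells. The same comparison of natural helper cells gave 0.81 against CD11c-negative and 0.78 against CD11c-positive eosinophils. Dusp6 gave -0.91 for natural helper cells against CD11c-positive eosinophils. Its values in natural helper cells were close, at 22 FPKM in both naive libraries and 17 and 21 after papain. Spry1 was higher after papain in basophils and eosinophils and lower in natural helper cells: 2.76 for basophils against natural helper cells, and -2.39 and -2.76 for natural helper cells against the CD11c-negative and CD11c-positive gates. Part of the Spry1 values rests on libraries listed at 0. Spry2 was lower after papain in basophils and higher in eosinophils, with -2.62 against the CD11c-negative and -3.92 against the CD11c-positive gate.

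Among other genes, basophils against natural helper cells gave -2.06 for Dusp16, 4.01 for Mapk13, 2.81 for Gadd45g, 3.82 for Maff and -1.49 for Map2k3. The Mapk13 value rests on naive basophil libraries both listed at 0, so its size depends on the pseudocount. Natural helper cells against CD11c-positive eosinophils gave -2.16 for Mapk13, -2.97 for Gadd45g, -3.57 for Maff, 2.56 for Gab2 and 1.9 for Map2k3. Against CD11c-negative eosinophils they gave -2.06 for Gadd45g, -2.65 for Maff, 2.05 for Gab2 and 1.74 for Map2k3. Basophils against CD11c-positive eosinophils gave 3.27 for Zbtb16 (1 and 0 FPKM in naive basophils) and 1.93 for Ptpn6. Basophils against CD11c-negative eosinophils gave 1.41 for Ptpn6.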

How the results depend on the processing

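For the members, 697 of 783 values under the alternatives moved by no more than the spread between replicates, 82 moved by more, and 4 turned direction. Those that turned were Dusp5 in natural helper cells (-0.01, median-ratio scaling), Dusp1 between the gates (-0.06, quantile normalization) and Dusp2 in naive basophils against eosinophils. Dusp2 gave 0.16 under median-ratio scaling and 0.29 under quantile normalization. By construction, only pseudocount and scaling could move a member by more than this spread. Filters, fits of the compared groups alone, the replicate block and single libraries left out could not, so the 697 is no measure of robustness. The members' median moved to -0.49 (quantile normalization, natural helper cells), to 1.85 (pseudocount 0.5, CD11c-positive eosinophils), to 0.76 and 0.79 (pseudocount 0.5 and median-ratio scaling, naive basophils against eosinophils) and to 0.45 (median-ratio scaling, naive basophils against natural helper cells). With the compared groups fitted alone, pathway calls were 1 in basophils, 3 in natural helper cells, 8 in each eosinophil gate, 15 for naive basophils against eosinophils, 18 against natural helper cells and 34 for naive eosinophils against natural helper cells. Fewer libraries share the estimate of the spread in those fits. Quantile normalization gave 1 call in natural helper cells, and 0 pathway genes were called in the CD11c-negative gate with a replicate block within cell type. The replicate block changed no other count of pathway calls by over 1.5 times. Leaving out each library in turn, pathway calls ranged from 12 to 35 in basophils, 0 to 2 in the CD11c-negative gate, 6 to 22 in the CD11c-positive gate, 0 to 2 between gates, 13 to 23 for naive basophils against eosinophils, 22 to 28 for naive basophils against natural helper cells and 38 to 44 for naive eosinophils against natural helper cells. The members' median ranged from -0.71 to 0.21 in basophils, 0.59 to 0.8 for naive basophils against eosinophils and -1.48 to -0.71 for naive eosinophils against natural helper cells (-0.71 without eosinophil library 1, -1.48 without library 2). Dusp4 kept a papain difference of 3.2 to 3.59 in natural helper cells under every alternative. The cause of the other shifts was not tested. The unknown depth and whole-number rounding limit values near 0, such as Spry1 in basophils and eosinophils.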

Other observations

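2 further lists were followed beside the pathway, 10 glucocorticoid-induced genes and 11 genes of tissue dissociation and heat shock. Cebpd, a transcription factor gene of the glucocorticoid list, rose with papain in basophils (8 and 4 to 35 and 63 FPKM, limma adjusted p = 0.00178). It also rose from 3 and 5 in naive eosinophils to 22 and 17 in the CD11c-negative gate (adjusted p = 0.0341) and to 35 and 29 in the CD11c-positive gate (adjusted p = 0.00377). Per1, a clock gene of the same list, was at 33 and 38 in naive and 15 and 11 in papain basophils. As a list the glucocorticoid genes had 2 higher and 2 lower in basophils and 1 higher in CD11c-negative eosinophils. In CD11c-positive eosinophils 3 were higher, and median-ratio scaling gave 3 higher and 3 lower there. Of the heat shock list, the chaperone genes Hspe1 (38 and 28 to 178 and 146, adjusted p = 0.0162) and Hsp90aa1 (128 and 59 to 362 and 397, adjusted p = 0.0224) rose in papain basophils. Both rose in CD11c-positive eosinophils as well, Hspe1 from 8 and 16 to 86 and 93 (adjusted p = 0.0117) and Hsp90aa1 from 32 and 51 to 169 and 153 (adjusted p = 0.0473).

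Tgm2, transglutaminase 2, separated the naive cell types, with 1214 and 1034 FPKM in eosinophils, 112 and 85 in basophils and 20 and 13 in natural helper cells (eosinophils against basophils limma adjusted p = 0.000803, against natural helper cells adjusted p = 2.59e-05). In papain eosinophils it was at 540 to 655. Ddit4, a stress-induced inhibitor of growth signalling, was higher in naive basophils (277 and 262) than in naive eosinophils (21 and 39, limma adjusted p = 0.00499), and stood at 51 and 177 in papain basophils.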
